A study of Mus musculus with 14 samples.

Results

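The glycolysis and pentose phosphate genes are a list of 33 mouse genes, chosen by symbol: the enzymes that take glucose to lactate, the phosphoglucomutases that link this route to glycogen, the enzymes that make and remove fructose 2,6-bisphosphate, and the enzymes of the oxidative and non-oxidative pentose phosphate branches. All 33 were among the 14837 genes of the input RNA table, 16 of them were among the 9416 genes of the m6A-RIP table, 8 among the 4527 of the Igf2bp3-RIP table and 9 among the 3493 of the Lin28a-RIP table. The rule matches names and uses no measured value, but the list was drawn up with earlier results of these data known. The data were 14 sequencing libraries from muscle stem cells (MuSCs), the resident stem cells of skeletal muscle, grown in serum on Matrigel. Lin28a+ MuSCs were sorted from mice that carry Lin28a-CreERT2 and a LSL-tdTomato reporter, in which tamoxifen-activated Cre under the Lin28a locus switches on the red reporter, and the control MuSCs carry the label Control. No treatment besides the RNA immunoprecipitation (RIP) is given for either group. Age, the number of animals behind a library and how the control cells were obtained for sequencing are not given in the labels. Each group had 2 input libraries, which are the RNA-seq, 2 libraries pulled down with an antibody to N6-methyladenosine (m6A), the most common internal mark of mRNA, and 2 with an antibody to Igf2bp3, an RNA-binding protein that reads this mark. A further 2 libraries were pulled down with an antibody to Lin28a, an RNA-binding protein of embryonic cells, from Lin28a+ MuSCs alone. How the replicates were prepared is not given, so p-values measure only the spread between these libraries, which may be technical.

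Glycolysis splits glucose into pyruvate in the cytosol and yields ATP and NADH, and lactate dehydrogenase then regenerates NAD+ by turning pyruvate into lactate. The pentose phosphate pathway leaves glycolysis at glucose 6-phosphate: its oxidative branch makes NADPH for biosynthesis and for the defence against oxidants, and its non-oxidative branch exchanges sugars between ribose 5-phosphate, the precursor of nucleotides, and glycolytic intermediates. Quiescent MuSCs rely largely on fatty acid oxidation and turn to glycolysis when they are activated, and differentiated muscle carries its own isoenzymes, such as the enolase Eno3 and the phosphoglycerate mutase Pgam2.

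The totals of the input libraries were 4842915 to 6220960 estimated counts, and the RIP libraries held 9215355 to 36610494 counts in the peaks or regions listed. RNA levels are given as CPM, counts relative to the library total after scaling the libraries by trimmed means (TMM), and they are not divided by gene length, so that they compare a gene between cells and not one gene with another. Of the muscle stem cell or myoblast markers, 9 of 10 were in the table, 2 of them higher and 5 lower in Lin28a+ MuSCs, and their summed RNA level was 8971 to 9307 CPM over the 4 input libraries. Endothelial markers summed to under 1 CPM in every library (0.322 to 0.786), with 6 of 8 not in the table, and macrophage markers to 1.57 to 3.18 CPM, with 3 of 8 not in the table. Fibro-adipogenic progenitor markers summed to 154 and 160 CPM in control MuSCs and to 79.6 and 79.3 CPM in Lin28a+ MuSCs, with 4 of 10 not in the table. Most of this sum was 1 gene, Gsn (144 and 149 CPM against 63.1 and 63.8 CPM); of the 3 tested 2 were lower, and Ly6a was higher (3.93 and 4.51 CPM against 13.6 and 12.5 CPM). Markers of pericytes or smooth muscle, of which 2 of 10 were not in the table, summed to 5879 and 5842 CPM in control MuSCs and to 7716 and 7699 CPM in Lin28a+ MuSCs. Acta2 made up most of that sum (5438 and 5401 CPM against 7439 and 7421 CPM); of the 5 tested 3 were higher and 2 lower, among them Tagln (285 and 293 CPM against 77.2 and 75.4 CPM). All 18 markers of differentiating myocytes were tested, 6 were higher and 12 lower in Lin28a+ MuSCs, and their sum went from 8368 and 8352 CPM to 7900 and 7871 CPM. Single markers moved far more than these sums, with log2 fold changes of 3.75 for Actc1, 1.86 for Myog, -1.07 for Acta1 and -2.21 for Tnnt2 among the myocyte markers and of 0.77 for Cdh15, -1.21 for Myf5 and -2.21 for Megf10 among the myoblast markers. The part of these differences in the results on sugar metabolism was not tested, and in these bulk samples a change in the mix of cells and a change of RNA per cell cannot be told apart.

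In RNA, more members were higher than lower in Lin28a+ MuSCs. The input libraries could be tested for 29 members; Pfkfb1, Pfkfb3, Aldoc and Eno2 did not pass the filter on low counts, with at most 2.04 CPM in a library (Pfkfb3). Past an adjusted p of 0.05 (edgeR quasi-likelihood test, Benjamini-Hochberg over 11317 genes) were 22 of the 29, 17 of them higher and 5 lower in Lin28a+ MuSCs. Over all genes tested 56.8% were called, 28.1% higher and 28.7% lower, and the median log2 fold change (Lin28a+ over control) was 0.01, against 0.21 over the 29 members, of which 21 lay above 0. DESeq2 called 12 of the 29, 10 higher and 2 lower, against 3039 of all 11317 genes, and the count was 17 to 19 when 1 library was left out. The plot of RNA by member shows the fold changes in pathway order.

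**Figure D1:**
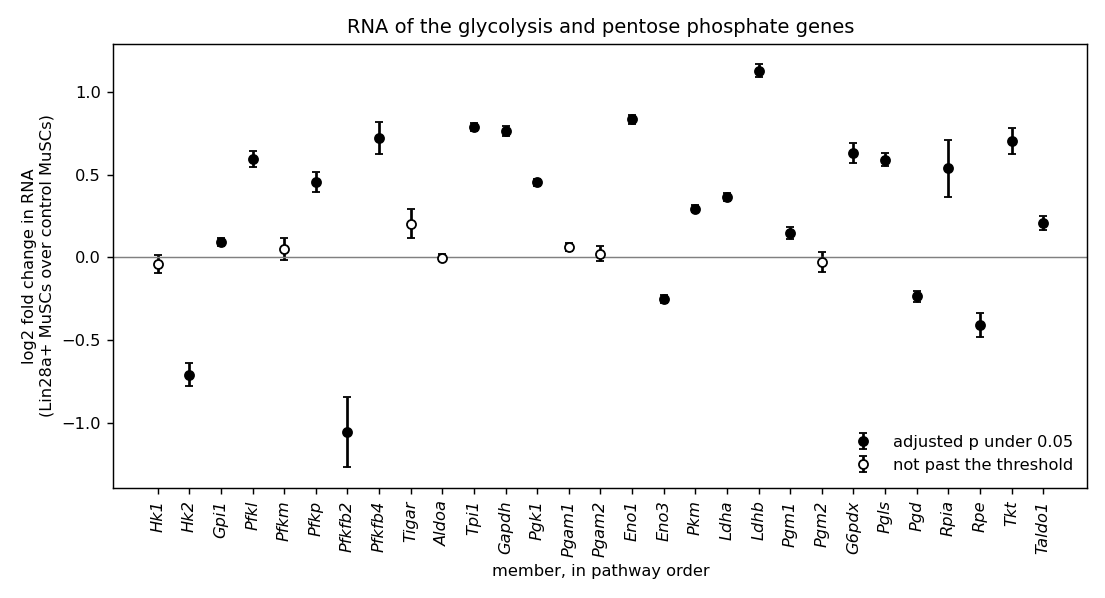
The log2 fold change in RNA (Lin28a+ over control MuSCs, 2 input libraries each) is on the vertical axis for the 29 members tested, in pathway order along the horizontal axis. Points are edgeR estimates, bars are their standard errors, and filled points are past an adjusted p of 0.05. Among the filled points 17 lie above 0, from Gpi1 at 0.09 to Ldhb at 1.13, and 5 lie below, down to Pfkfb2 at -1.06.

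The entry into glycolysis did not share the rise. Hexokinases trap glucose as glucose 6-phosphate. Hk2, the inducible hexokinase of muscle, had 65.2 and 65.8 CPM in the control libraries and 43.0 and 37.0 CPM in the Lin28a+ libraries. It fell by 0.71 ± 0.07 on the log2 scale (SE, n = 2 per group, edgeR adjusted p = 0.000437). Hk1, the ubiquitous hexokinase, was at 27.0 ± 0.5 CPM (SD, n = 2) in control and 26.2 ± 0.4 CPM in Lin28a+ MuSCs, and its difference did not pass the test (edgeR adjusted p = 0.795). Within a library the ratio of Hk2 to Hk1 was therefore lower in both Lin28a+ libraries, at 0.631 of the control mean.

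The next enzyme, glucose 6-phosphate isomerase (Gpi1), had 216 ± 2.6 CPM in control and 230.5 ± 0.8 CPM in Lin28a+ MuSCs. It was called as a small rise of 0.09 ± 0.03 (edgeR adjusted p = 0.0425), a call that was lost in DESeq2, with DESeq2 size factors, with a minimum of 10 counts and with any library left out. Phosphofructokinase commits the sugar to glycolysis and has 3 subunit genes. The liver-type Pfkl rose from 29.2 ± 0.6 to 44.0 ± 0.3 CPM (log2 fold change 0.59 ± 0.05, edgeR adjusted p = 0.00021), and the platelet-type Pfkp rose from 15.8 ± 0.1 to 21.7 ± 0.2 CPM (0.46 ± 0.06, edgeR adjusted p = 0.0039), a call that DESeq2 did not make (adjusted p = 0.291). The muscle-type Pfkm was at 46.0 ± 1.8 CPM in control and 47.7 ± 3.6 CPM in Lin28a+ MuSCs, its libraries overlapped, and the difference did not pass the test (edgeR adjusted p = 0.652). The ratio of Pfkl to Pfkm was 1.45 times and that of Pfkp to Pfkm 1.33 times its control mean.

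The bifunctional enzymes of the Pfkfb family make and remove fructose 2,6-bisphosphate, the strongest activator of phosphofructokinase, and Tigar removes it. Pfkfb4 was at 10.5 and 8.85 CPM in the control libraries and at 15.9 and 15.7 CPM in the Lin28a+ libraries. It rose by 0.72 ± 0.10 (edgeR adjusted p = 0.00145), a call that DESeq2 did not make. Pfkfb2 was at 2.81 and 3.06 CPM in controls against 1.38 and 1.43 CPM in Lin28a+ MuSCs, which gave -1.06 ± 0.21 (edgeR adjusted p = 0.0284). The groups of both genes stood apart, but at these low levels the Pfkfb2 call was lost in DESeq2 and with any of the 4 libraries left out. Tigar was at 36.3 ± 2.2 CPM in control and 41.7 ± 4.6 CPM in Lin28a+ MuSCs and did not pass the test (edgeR adjusted p = 0.105), although it did without 1 of the Lin28a+ libraries.

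The largest changes in abundant members were in the middle and lower part of the route. Aldolase splits the six-carbon sugar, and Aldoa was at 690.4 ± 4.4 CPM in control and 690.04 ± 5.8 CPM in Lin28a+ MuSCs. The files hold a second identifier with the symbol Aldoa at a mean of 6.75 estimated counts, which was left aside. Triose phosphate isomerase (Tpi1), which interconverts the products of aldolase, had 372 and 370.4 CPM in controls against 649 and 635 CPM in Lin28a+ MuSCs. This is a rise of 0.79 ± 0.02 (edgeR adjusted p = 1.14e-05).

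Glyceraldehyde 3-phosphate dehydrogenase (Gapdh), the step that makes NADH and a gene often used as a reference in expression assays, had 1244 and 1310 CPM in the control libraries and 2152 and 2182 CPM in the Lin28a+ libraries. It rose by 0.76 ± 0.03 (edgeR adjusted p = 2.46e-05), with both Lin28a+ libraries above both controls. Phosphoglycerate kinase (Pgk1), the first step that yields ATP, rose from 1217 ± 18 to 1666 ± 21 CPM (0.45 ± 0.02, edgeR adjusted p = 4.98e-05). The 2 phosphoglycerate mutases did not pass the test: Pgam1 was at 645 ± 4.4 and 674 ± 13 CPM (edgeR adjusted p = 0.0725) and the muscle-type Pgam2 at 208 ± 9.9 and 210.4 ± 7.9 CPM (edgeR adjusted p = 0.715). Scaled by total counts instead of TMM, Pgam1 passed the threshold as higher.

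The enolases moved in opposite directions. The ubiquitous Eno1 had 486 and 507 CPM in controls against 879 and 891 CPM in Lin28a+ MuSCs, a rise of 0.83 ± 0.03 (edgeR adjusted p = 1.55e-05). The muscle-type Eno3 had 353 and 359 CPM in controls against 298 and 301 CPM in Lin28a+ MuSCs, a fall of 0.25 ± 0.02 on the log2 scale (edgeR adjusted p = 0.000415, log2 fold change -0.25). Neither gene had overlapping groups, and the ratio of Eno3 to Eno1 in the Lin28a+ libraries was 0.471 of its control mean. Pyruvate kinase (Pkm), the last step, rose from 1124 ± 9.5 to 1377 ± 8.4 CPM (0.29 ± 0.02, edgeR adjusted p = 0.000142); the counts do not separate its splice forms.

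Both lactate dehydrogenase subunits rose, and the heart-type subunit rose more. Ldhb was at 41.8 and 43.0 CPM in the control libraries and at 93.4 and 92.0 CPM in the Lin28a+ libraries, the largest rise among the members (1.13 ± 0.04, edgeR adjusted p = 1.6e-05). Ldha, the muscle-type subunit, rose from 217 ± 1.6 to 279 ± 0.3 CPM (0.37 ± 0.02, edgeR adjusted p = 0.000113). The ratio of Ldhb to Ldha was 1.70 times the control mean in Lin28a+ MuSCs, a difference that was not tested as such. Phosphoglucomutase, which interconverts glucose 1- and 6-phosphate, moved little: Pgm1 was at 90.7 ± 2.5 and 100.5 ± 1.3 CPM, a call at the edge of the threshold (edgeR adjusted p = 0.0411) that was lost in DESeq2, with DESeq2 size factors, with a minimum of 10 counts and with any library left out, and Pgm2 was at 34.1 ± 0.01 and 33.4 ± 2.2 CPM (edgeR adjusted p = 0.847).

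**Figure D2:**
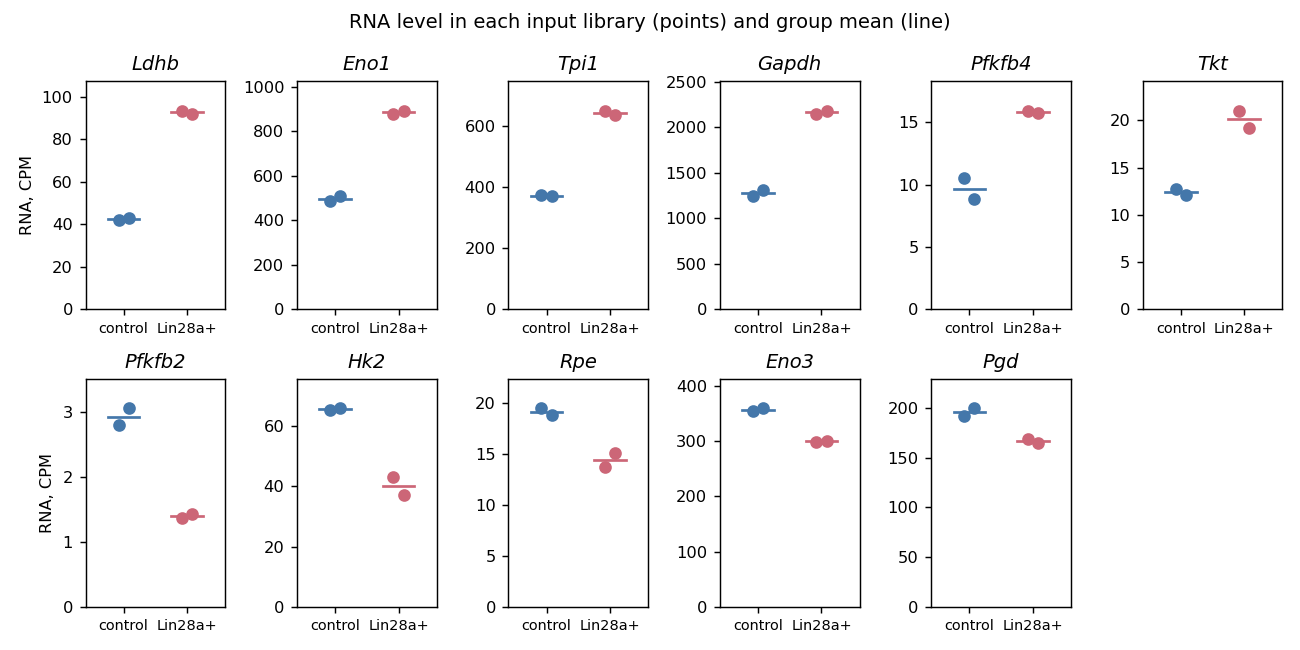
Each panel shows 1 member, with RNA in CPM on the vertical axis (starting at 0) and control and Lin28a+ MuSCs on the horizontal axis. Points are the 2 input libraries of a group and lines their mean. The upper 6 panels are the largest rises and the lower 5 are the members that were lower, all chosen because they passed the test. In none of them do the groups overlap, which follows largely from this choice.

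In the oxidative pentose phosphate branch the first steps and the last one moved apart. Glucose 6-phosphate dehydrogenase (G6pdx), which controls entry into the branch and makes NADPH, rose from 38.1 ± 2.8 to 59.3 ± 1.4 CPM (0.63 ± 0.06, edgeR adjusted p = 0.000394), and 6-phosphogluconolactonase (Pgls) rose from 70.4 ± 2.4 to 106 ± 1.0 CPM (0.59 ± 0.04, edgeR adjusted p = 0.000101). Phosphogluconate dehydrogenase (Pgd), the other NADPH-making step, was at 192 and 199.5 CPM in controls against 169 and 164 CPM in Lin28a+ MuSCs. It was lower by edgeR (-0.24 ± 0.03, adjusted p = 0.00167), a call that DESeq2 did not make. The ratio of Pgd to G6pdx in Lin28a+ MuSCs was 0.546 of its control mean.

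In the non-oxidative branch, transketolase (Tkt), which moves two-carbon units between sugars, was at 12.7 and 12.1 CPM in controls against 21.03 and 19.2 CPM in Lin28a+ MuSCs. It rose by 0.70 ± 0.08 (edgeR adjusted p = 0.000701). Transaldolase (Taldo1) rose less, from 139 ± 6.8 to 160.5 ± 0.5 CPM (0.21 ± 0.04, edgeR adjusted p = 0.00656). Of the enzymes that interconvert the five-carbon sugars, ribose phosphate isomerase (Rpia) was higher in Lin28a+ MuSCs, at 10.8 ± 1.7 against 7.37 ± 1.4 CPM (0.54 ± 0.17, edgeR adjusted p = 0.0413), and ribulose phosphate epimerase (Rpe) lower, at 19.5 and 18.8 CPM in controls against 13.8 and 15.1 CPM in Lin28a+ libraries (-0.41 ± 0.07, edgeR adjusted p = 0.0163). DESeq2 called none of these 4 genes, and the Rpia and Rpe calls were each also lost when either of 2 single libraries was left out. Several abundant members, among them Gapdh, Aldoa, Pgk1, Pgam1, Ldha, Eno1, Tpi1 and Pkm, have near-identical processed pseudogenes in the mouse genome, and how reads with several matches were counted is not given, so their counts could be split.

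**Figure D3:**
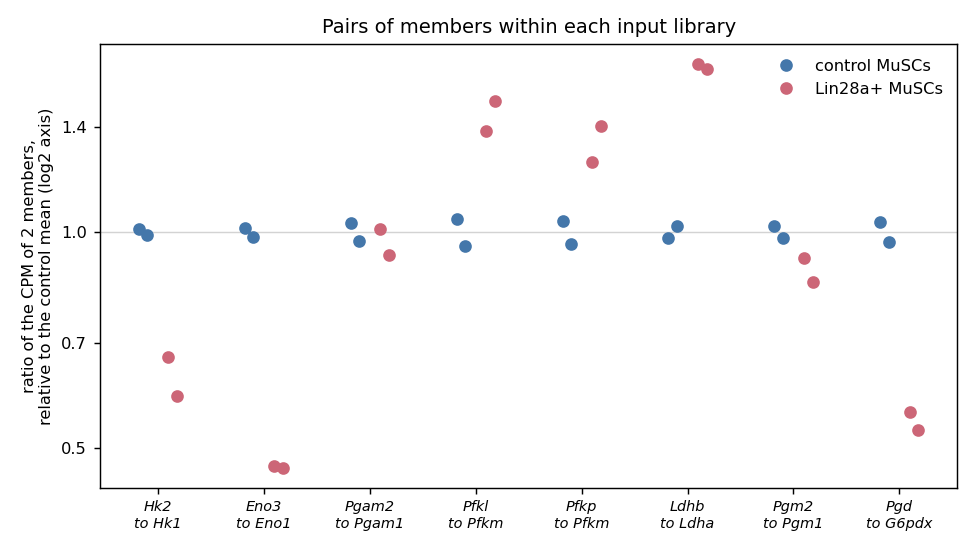
The vertical axis (log2 scale) is the ratio of the CPM of 2 members within an input library, divided by the mean ratio of the control libraries, and the horizontal axis lists the pairs. Points are single libraries, 2 per group. The Eno3 to Eno1 ratio in Lin28a+ MuSCs lies at 0.471 and the Ldhb to Ldha ratio at 1.70 of the control mean, while Pgam2 to Pgam1 overlaps.

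The promoters of the members were read for short motifs. Hypoxia-inducible factor (HIF) is known to act on many glycolytic genes. RefSeq (GRCm38.p6) gave windows for all 33 members. The letters ACGTG, the core of the HIF site, were searched on both strands in the 250 bases before each listed start. They occur in at least 1 window of 11 members (33.3%), and in 18.5% of all 27025 genes with a window. Among the 17 members higher in RNA 4 hold them (23.5%), and among the 5 lower ones 2 (40%). The palindrome CACGTG, which holds this core on both strands, is held by 4 members (12.1%) and by 6.86% of all genes, and CAGCTG, a form of E-box that MyoD binds, by 6 members (18.2%) and by 14.7% of all genes. Genes with several starts have several windows and so more chances of a match, and a match is a description of letters only. A set of 3 promoters with the core and of 3 among the largest rises without it is shown 5′ to 3′ on the strand of the gene, from the first start listed, with ACGTG or its reverse complement CACGT in capitals.

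Ldha (chr7:46845554-46845803, plus strand): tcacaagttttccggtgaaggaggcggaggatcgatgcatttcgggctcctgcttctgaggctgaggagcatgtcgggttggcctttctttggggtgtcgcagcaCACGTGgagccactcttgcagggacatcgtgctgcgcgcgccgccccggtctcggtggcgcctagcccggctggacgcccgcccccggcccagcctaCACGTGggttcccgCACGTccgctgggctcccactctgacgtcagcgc
Pgk1 (chrX:106186850-106187099, plus strand): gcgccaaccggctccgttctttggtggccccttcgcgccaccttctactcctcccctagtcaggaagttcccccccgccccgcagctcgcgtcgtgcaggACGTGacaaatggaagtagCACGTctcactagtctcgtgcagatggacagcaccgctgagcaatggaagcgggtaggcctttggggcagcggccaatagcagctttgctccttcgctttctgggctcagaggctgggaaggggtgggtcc
Hk2 (chr6:82774455-82774704, minus strand): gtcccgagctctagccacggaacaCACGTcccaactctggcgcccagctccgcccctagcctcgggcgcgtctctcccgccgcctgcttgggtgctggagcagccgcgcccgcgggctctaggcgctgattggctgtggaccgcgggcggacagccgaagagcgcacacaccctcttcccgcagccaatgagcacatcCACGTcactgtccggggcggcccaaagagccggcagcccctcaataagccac
Ldhb (chr6:142507958-142508207, minus strand): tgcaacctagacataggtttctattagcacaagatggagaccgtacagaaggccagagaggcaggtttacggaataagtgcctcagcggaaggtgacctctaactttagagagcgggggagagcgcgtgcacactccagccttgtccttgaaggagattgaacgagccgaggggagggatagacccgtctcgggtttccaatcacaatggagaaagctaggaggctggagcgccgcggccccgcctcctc
Tpi1 (chr6:124814159-124814408, minus strand): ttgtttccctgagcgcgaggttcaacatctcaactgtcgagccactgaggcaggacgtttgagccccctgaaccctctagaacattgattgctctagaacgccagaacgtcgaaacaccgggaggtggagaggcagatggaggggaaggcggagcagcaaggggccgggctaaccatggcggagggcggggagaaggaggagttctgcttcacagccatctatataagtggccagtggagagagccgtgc
Gapdh (chr6:125165774-125166023, minus strand): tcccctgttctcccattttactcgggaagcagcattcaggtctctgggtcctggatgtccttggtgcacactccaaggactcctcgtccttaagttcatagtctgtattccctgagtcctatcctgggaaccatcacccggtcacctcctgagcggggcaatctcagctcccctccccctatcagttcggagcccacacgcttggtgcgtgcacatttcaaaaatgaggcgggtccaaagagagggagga

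The window of Ldha holds 5 matches, which form 2 palindromes and 1 single core. Pgk1 and Hk2 hold 2 single cores each, and Ldhb, Tpi1 and Gapdh have no match in these 250 bases. No relation of the motif to the RNA changes was tested.

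The m6A-RIP table holds whole-number counts for regions of transcripts, without positions, and 29 of its 18881 rows belong to 16 members. Of the 29 members tested in RNA 55.2% had a row, and of all genes tested in RNA 65.6%. Ldha, Ldhb, Pfkm, Pfkp, G6pdx, Pgls, Tkt, Rpia and Rpe are among the members without one. The rows of a gene were summed, and m6A-RIP levels are CPM within the m6A-RIP libraries. Past the threshold were 11 of the 16 members (edgeR, 9413 genes tested), 7 higher and 4 lower in Lin28a+ MuSCs. Over all genes 66.2% were called, 32.5% higher and 33.7% lower. Under scaling by total counts the members split into 5 higher and 7 lower, and all called genes from 3060 higher and 3176 lower into 2390 and 3765, as the median of all genes moved from 0.01 to -0.09.

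The abundant members with large rises in RNA were also higher in m6A-RIP. Eno1 had 277.5 and 305.5 CPM of m6A-RIP in controls against 479 and 484 CPM in Lin28a+ MuSCs (log2 fold change 0.73 ± 0.05, edgeR adjusted p = 4.76e-08). Tpi1 had 356 and 359 CPM in controls against 560.4 and 603 CPM in Lin28a+ MuSCs (0.70 ± 0.04, edgeR adjusted p = 2.74e-08). Gapdh had 197 and 224 CPM in controls against 311 and 349 CPM in Lin28a+ MuSCs (0.65 ± 0.06, edgeR adjusted p = 1.94e-06). In these 3 genes both Lin28a+ libraries lay above both controls, as in RNA, and Pfkl (0.48), Pgk1 (0.38), Pgm1 (0.19) and Pkm (0.12) were also higher. With total counts Pgm1 and Pkm were no longer called, and either call was also lost without 1 of the control or 1 of the Lin28a+ libraries.

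On the lower side, Hk2 had 7.53 and 7.73 CPM of m6A-RIP in controls against 4.18 and 6.17 CPM in Lin28a+ MuSCs (-0.55 ± 0.20, edgeR adjusted p = 0.0313), a call that DESeq2 did not make and that was lost without 1 of the Lin28a+ libraries. Hk1 had 13.4 and 17.1 CPM in controls against 11.2 and 11.4 CPM in Lin28a+ MuSCs (-0.42 ± 0.15, edgeR adjusted p = 0.0262), and leaving out any of 3 of the 4 libraries ended that call. Over the libraries left out in turn, the m6A-RIP log2 fold change ran from -0.59 to -0.24 for Hk1 and from -0.87 to -0.30 for Hk2. Eno3 had 132 and 145 CPM in controls against 96.4 and 113 CPM in Lin28a+ MuSCs (-0.40 ± 0.07, edgeR adjusted p = 0.000208). Pgd was lower too (-0.29 ± 0.04, edgeR adjusted p = 3.41e-05). Of the 16 members measured in both assays, 10 were called in both, each in the same direction. Hk1 was called in m6A-RIP only, and Gpi1 and Taldo1 in RNA only. These differences between the assays are tested in the next comparison. Over all genes 56.8% were called in RNA and 66.2% in m6A-RIP. The share of all genes called in both was not counted, and such agreement may be common to most genes.

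**Figure D4:**
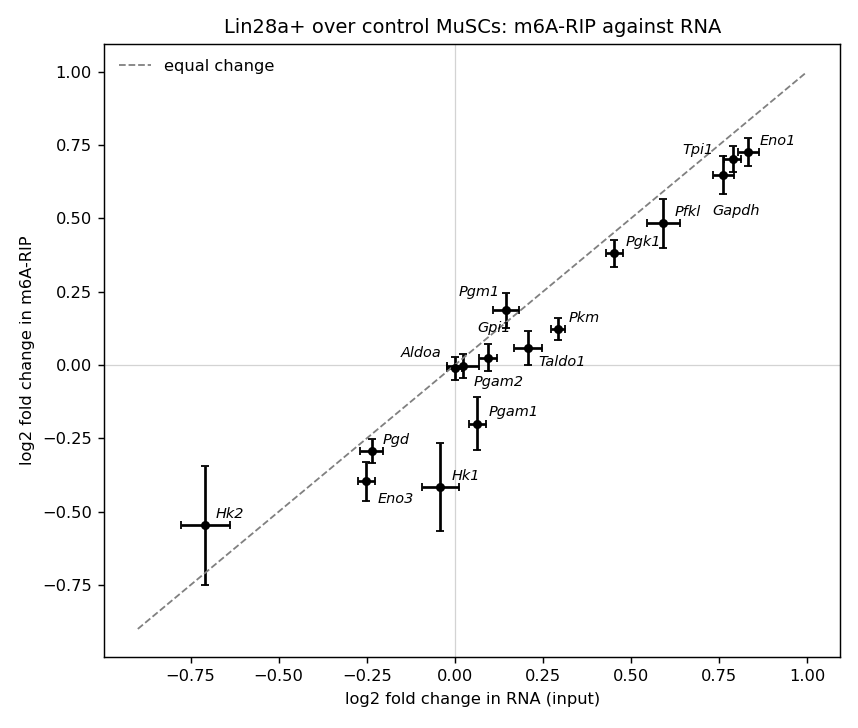
For the 16 members with m6A-RIP rows, the horizontal axis is the log2 fold change in RNA and the vertical axis that in m6A-RIP (Lin28a+ over control MuSCs, 2 libraries per group and assay); bars are standard errors and the dashed line marks equal change. The points run along the line from Hk2 at the lower left to Eno1 at the upper right, and 14 of the 16 have the same sign in both. The share of all genes with the same sign was not counted.

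Of the 10 members with several rows, 5 had all rows called in 1 direction. The share over all genes with several rows was not counted, so this describes the members only. Of the 29 member rows 18 were called by edgeR, 12 higher and 6 lower, against 61.8% of all rows, 30.0% higher and 31.8% lower. With total counts 9 member rows were higher and 10 lower, against 3842 and 7638 of all 18881 rows. The median over all rows was then -0.15. All 3 rows of Gapdh (log2 fold changes 0.50, 0.58 and 0.85), both of Eno1 (0.72 and 0.82), both of Tpi1 (0.83 and 0.49) and both of Pkm (0.14 and 0.18) were higher, and all 3 of Pgd were lower (-0.23, -0.21 and -0.55). Pfkl and Pgm1 had 1 row past the threshold (0.67 and 0.29) and 1 row that was not (0.12 and -0.06), and no row of Pgam2 (-0.02, 0.10 and 0.07), Gpi1 (0.09 and -0.09) or Taldo1 (0.10 and 0.12) was called.

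Whether m6A-RIP changed more or less than RNA was tested with an interaction term in 1 model of both assays. The model holds 1 spread per gene for both, although the coefficient of variation was 2.48% in RNA and 5.74% in m6A-RIP per gene. Its standard errors and p-values may therefore be too small. Of the 16 members only Pkm passed the threshold (edgeR), against 7.24% of 7415 genes, 3.36% higher and 3.88% lower. Its m6A-RIP level was 807 and 805 CPM in controls against 864 and 892 CPM in Lin28a+ MuSCs, while its RNA went from 1118 and 1131 to 1371 and 1383 CPM. The rise in m6A-RIP was thus smaller than that in RNA by 0.16 ± 0.04 on the log2 scale (log2 difference -0.16, edgeR adjusted p = 0.0262). The call was lost when any 1 of the 4 input libraries or the first control m6A-RIP library was left out. Without 1 of the Lin28a+ m6A-RIP libraries Pgam1 was called as well, and without the first control m6A-RIP library Hk1 was called in place of Pkm. The difference lay below 0 for 14 of the 16 members, with a median of -0.09 against -0.01 over all genes, and at an unadjusted p under 0.05 were 3 of the 16 (Pkm, Pgam1 and Taldo1) and 17% of all genes.

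Igf2bp3-RIP was counted per peak. The members held 11 of the 19465 peaks, in 8 genes: Hk1, Hk2 and Rpe with 2 peaks each, and Pfkp, Aldoc, Pgam1, Pgm2 and Pgd with 1. Of the members tested in RNA 24.1% had a peak, and of all genes 32.9%. No member peak passed the threshold in edgeR, where 0.123% of all peaks did (0.0616% higher and 0.0616% lower). None of them passed it in DESeq2, which called 263 of all 19465 peaks, 111 higher and 152 lower. At an unadjusted edgeR p under 0.05 was 1 of the 11, against 5.22% of all peaks. Summed per gene, 0 of 8 members were called by edgeR, against 0.287% of 4524 genes, 0.133% higher and 0.155% lower. Of the 8, 1 (Hk1) had an unadjusted edgeR p under 0.05, as did 382 of the 4524 genes. The libraries of a group differed widely here, with a biological coefficient of variation of 27.9% per peak against 2.48% in RNA, and in simulated data with the spread of these peaks 3% of 2-fold changes and 99.5% of 8-fold changes were called. For sums per gene 20.5% of 2-fold changes were called, so most changes of that size would have been missed.

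The single member peak with an unadjusted p under 0.05 lies in Hk1 at chr10:62275820-62276021, in the last part of the gene. Its Igf2bp3-RIP level was 32.1 and 34.7 CPM in controls against 17.6 and 17.3 CPM in Lin28a+ MuSCs (-0.94 ± 0.26, edgeR unadjusted p = 0.0102, adjusted p = 0.545). The other Hk1 peak, at chr10:62295817-62296279, had 64.85 and 49.4 CPM in controls against 48.9 and 30.5 CPM in Lin28a+ MuSCs (-0.53 ± 0.34). Over both peaks Hk1 had 93.2 and 88.0 CPM in controls against 62.8 and 50.3 CPM in Lin28a+ MuSCs (-0.68 ± 0.22, edgeR adjusted p = 0.485), so that the groups did not overlap but the difference did not pass the test. With the replicate number as a block, a fit in which 10.2% of all peaks were called, both Hk1 peaks passed the threshold as lower. Among the other members, Pgd had 94.5 and 97.4 CPM in controls against 73.6 and 76.6 CPM in Lin28a+ MuSCs (-0.35 ± 0.20) and Pgam1 133 and 129 CPM against 136 and 129 CPM (0.02 ± 0.19).

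Set against RNA in the interaction model, none of 7 members was called by edgeR, where 1.35% of 3715 genes were, 0.485% higher and 0.861% lower. This model again holds 1 spread per gene, although the coefficient of variation was 2.48% in RNA and 25.4% in Igf2bp3-RIP per gene. Its standard errors and p-values may therefore be too small. With total counts all calls shifted from 18 higher and 32 lower to 84 and 31, and the members still had none. The median difference of the members was -0.28 with TMM and -0.15 with total counts, against 0.02 and 0.16 over all genes. TMM was set here on the genes shared by both assays, so these differences need not equal those between the separate fits. At an unadjusted p under 0.05 were 2 of the 7 against 25.1% of all genes: Hk1 (log2 difference -0.87 ± 0.20, edgeR adjusted p = 0.0728), and Pfkp (-1.14 ± 0.27, edgeR adjusted p = 0.0759), whose RNA rose while its Igf2bp3-RIP level was 11.5 and 8.78 CPM in controls against 6.31 and 8.18 CPM in Lin28a+ MuSCs. Each of them passed the threshold when 1 library was left out, Pfkp without the second control and Hk1 without the first Lin28a+ Igf2bp3-RIP library. The adjusted p over all single-library omissions ran from 0.0211 to 0.325 for Hk1 and from 0.0472 to 0.325 for Pfkp.

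Lin28a-RIP was made from Lin28a+ MuSCs only, so its levels are a description with no group to compare and no test. It held 44 member peaks in 9 genes; of the members tested in RNA 27.6% had a peak, and of all genes 25.4%. Levels are CPM of all counts in the Lin28a-RIP peaks of a library, summed over the peaks of a gene. Pkm stood highest, with 6 peaks and 2810 and 2664 CPM, in the 98.5th percentile of the 3491 genes with a peak. Hk1 followed with 15 peaks and 526 and 523 CPM (88.1st percentile). Eno1 had 2 peaks with 372 and 369.6 CPM, Hk2 7 peaks with 154 and 147 CPM, Pfkp 9 peaks with 128 and 130 CPM and Pgd 2 peaks with 111 and 109 CPM. The median over all genes with a peak was 3 peaks and 67.2 CPM. These sums are not divided by the length of the peaks. Divided by input CPM, 3 of the 8 members with a ratio lay above the median of 2868 genes, and they ranged from the 2.89th percentile (Tpi1) to the 86.5th (Hk1), with Pkm at the 41.2nd. These places are uncertain, since the input values look like means over the transcripts of a gene, which do not compare between genes.

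Positions of the peaks are those the authors deposited; the build is not named in the tables, mm10 and GRCh38 stand in the processing notes, and 42 of the 44 Lin28a-RIP and 9 of the 11 Igf2bp3-RIP member peaks touch the span of their gene in RefSeq GRCm38.p6. Exon and intron positions were not used here. The peaks of Hk1 sit between 57.9% and 97.3% of the way along its span, the first at chr10:62315490-62315692 and the last at chr10:62271626-62271993, while those of Hk2 run from a peak that spans the start of the gene, at chr6:82773942-82774518, to 70.3%. In Pkm they lie from 37.8% to 83.1%, the strongest at chr9:59670271-59670546 with 26280 and 21665 counts. The peaks assigned to Tpi1 (chr6:124815142-124815811) and Aldoc (chr11:78321949-78322377) lie outside these genes, with midpoints at -1.32 kb and -0.91 kb from their starts, and overlap Usp5 and Spag5. Likewise both Igf2bp3-RIP peaks assigned to Rpe overlap Kansl1l, and 1 of them lies beyond the end of Rpe. Signal at these peaks cannot be told apart from that of the neighbouring gene, so the Lin28a-RIP of Tpi1 and Aldoc and the Igf2bp3-RIP of Aldoc and Rpe are uncertain. Within Pfkp, the Lin28a-RIP peak at chr13:6635950-6636152 (423 and 423 counts) also overlaps Gm35730 and shares this limit.

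**Figure D5:**
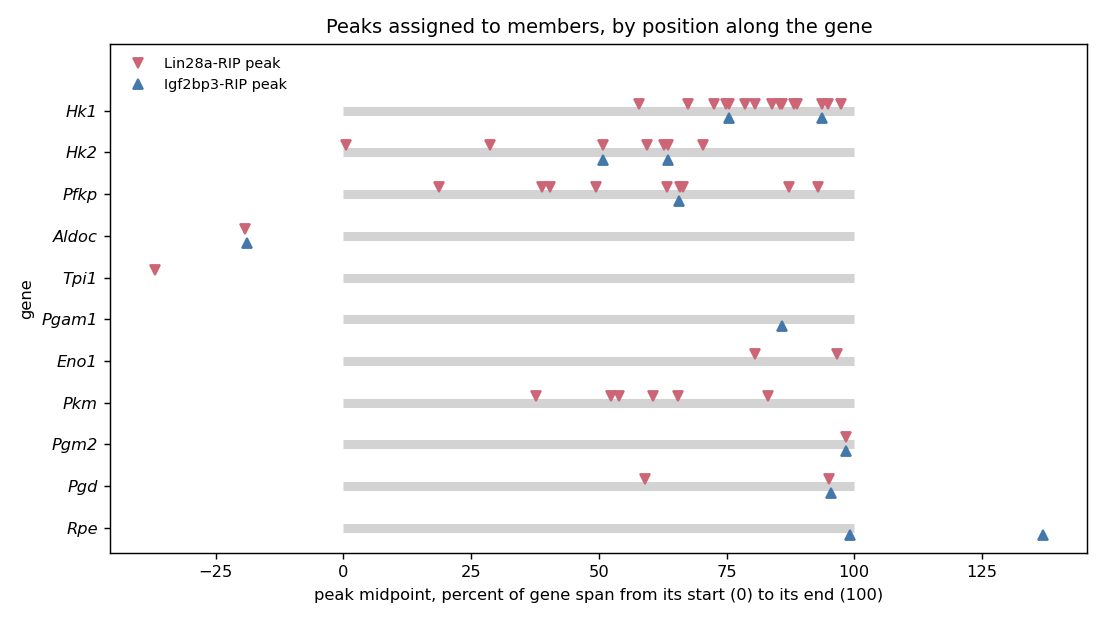
Each row is a member with a peak, the grey bar is its span, and the horizontal axis gives the midpoint of a peak in percent of the span from the start (0) to the end (100) of the gene. Triangles above the bar are Lin28a-RIP and those below are Igf2bp3-RIP peaks. Hk1 carries 15 Lin28a-RIP peaks in its distal part and 2 Igf2bp3-RIP peaks among them, and the peaks of Aldoc and Tpi1 and 1 of Rpe lie outside the bars.

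The overlap of Igf2bp3-RIP and Lin28a-RIP peaks was counted. Of the 11 Igf2bp3-RIP member peaks 8 (72.7%) overlapped a Lin28a-RIP peak by at least 1 bp, against 60.4% of all Igf2bp3-RIP peaks. In the other direction 8 of the 44 Lin28a-RIP member peaks (18.2%) overlapped an Igf2bp3-RIP peak, against 52.4% of all. Each shared pair was assigned to the same member, 2 to Hk1, 2 to Hk2 and 1 each to Pfkp, Aldoc, Pgd and Pgm2, with the Aldoc pair outside its gene. The Pkm, Eno1 and Tpi1 peaks had no Igf2bp3-RIP partner, and Pgam1 and Rpe had Igf2bp3-RIP peaks only. The 8 pairs also met a minimum overlap of 50% of each peak, by which the shares over all peaks were 47.7% of Igf2bp3-RIP and 43.0% of Lin28a-RIP peaks; the differences from the members were not tested.

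The neighbouring genes of sugar metabolism, a list of 49 genes that holds no member, were read beside the members. Of the 30 tested in RNA, 6 were higher and 8 lower by edgeR, with a median log2 fold change of -0.14; over all genes 28.1% were higher and 28.7% lower. Pck2, the mitochondrial phosphoenolpyruvate carboxykinase, rose from 17.98 and 18.3 CPM to 47.2 and 47.4 CPM (1.38 ± 0.05, edgeR adjusted p = 1.82e-05). Slc16a3, a lactate exporter, rose from 1.31 and 1.45 to 2.95 and 2.86 CPM (1.06 ± 0.21, edgeR adjusted p = 0.028), and Slc2a3, a glucose transporter, from 3.56 and 3.38 to 5.70 and 5.52 CPM (0.69 ± 0.13, edgeR adjusted p = 0.0344). Both of these transport genes were low. The third that was higher of the 5 tested was the glucose transporter Slc2a1 (33.3 and 35.6 CPM against 48.2 and 47.8 CPM, 0.47 ± 0.05, edgeR adjusted p = 0.000623), and the lactate transporter Slc16a1 was lower (380.3 and 373 CPM against 294 and 297 CPM, -0.35 ± 0.03, edgeR adjusted p = 0.00014).

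Of the 8 genes tested in the sublist for glycogen, which also holds the phosphoglucomutase relatives Pgm2l1 and Pgm3, 5 were lower and 1 higher, with a median of -0.58; 28.7% of all genes were lower. Gbe1, the branching enzyme, fell from 21.5 and 21.6 CPM to 7.66 and 9.40 CPM (-1.34 ± 0.10, edgeR adjusted p = 0.000143). Ugp2, which makes the UDP-glucose that glycogen is built from, fell from 91.4 and 94.5 to 49.1 and 46.6 CPM (-0.96 ± 0.04, edgeR adjusted p = 3.74e-05), and Pgm2l1, a phosphoglucomutase relative that makes glucose 1,6-bisphosphate, from 4.12 and 5.15 to 2.95 and 2.45 CPM (-0.78 ± 0.19, edgeR adjusted p = 0.0325). In m6A-RIP 21 genes of the list could be tested, and 7 were higher and 7 lower, against 32.5% and 33.7% of all genes.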

How the data were processed

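The 33 members and all gene lists were chosen with earlier results of these data known. Reads were trimmed and aligned with HISAT2 2.0.4, per the submitters' processing notes, which also name FastQC, MACS2 1.4.3 and DESeq2 1.42.0. The builds named are GRCh38, which is human, and mm10, whereas the identifiers are those of mouse genes. The counting program, the peak threshold and pooling for peak calling are not given in the sources used here. The RIP tables, as deposited, hold unscaled whole-number counts of each peak or transcript region. The input table deposited by the authors holds estimated counts of genes, rounded here before the test; 5.98% of genes have 4 whole values and the decimals are those a mean over transcripts would give, so library sums were not read as read numbers. Both Lin28a+ input columns carry m6A-RIP names and both Lin28a+ m6A-RIP columns share 1 name, so they were assigned to their group without a number. The ranks of the former were close to the control input (Spearman 0.943 with control input over 7950 genes, at most 0.515 with Lin28a+ m6A-RIP). The 2 Lin28a+ input libraries differed by more than counting noise where values are whole (chi-square per degree of freedom 2.12 over 609 genes, against 57.0 over 639 for the controls), though not over all 10809 genes (1.01, against 4.71); they were counted as 2 samples.

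Members were matched by symbol to Ensembl identifiers (99.96% of input genes had a symbol) and by Entrez identifier (99.96% to 99.98% of RIP rows). The main test was edgeR 4.0.16 (quasi-likelihood, TMM, filterByExpr, Benjamini-Hochberg adjusted p under 0.05) in R 4.3.3 on whole tables, with an interaction of cells and assay for RIP relative to RNA and TMM within each assay; the replicate numbers of Igf2bp3-RIP were not used as pairs. Standard errors are the log2 fold change divided by the root of the F statistic. Tested on simulated data with 200 changed features, the fits called 87.5% of 2-fold changes in RNA and 99% in m6A-RIP genes. They called 92% in m6A relative to RNA and 17% in Igf2bp3-RIP relative to RNA. In these last 2 simulations both assays had 1 common spread, unlike in the data, so their shares may not hold for the data. Alternatives were DESeq2 1.42.0, its size factors, total counts, other filters (none, at least 10 counts in every library), limma-voom (limma 3.58.1) on unrounded values, a replicate block, each library left out, peaks with at least 100 counts and an overlap of 50%.

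Values per library are printed for the 6 largest rises and falls in RNA past the threshold (5 fell), the 3 largest of each in m6A-RIP, members called relative to RNA and the 6 highest in Lin28a-RIP. The marker genes with values, Slc16a1, Slc2a1, the Igf2bp3-RIP values of Hk1, Pfkp, Pgd and Pgam1, the peak positions described and the promoters shown were chosen after their values were seen. Lin28a itself was not analysed here, and no genome sequence was used for the peaks.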

Additional observations from a re-analysis of the deposited data

Results flagged for a closer look

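The m6A-RIP of Pkm differed from its RNA in the contrast of Lin28a+ and control MuSCs. RNA rose by 0.29 and m6A-RIP by 0.12 on the log2 scale, and the interaction term was -0.16 ± 0.04 (edgeR adjusted p = 0.0262, with 2 libraries per group and assay). In both Lin28a+ libraries of either assay the level was above both controls. Over the libraries left out in turn, its adjusted p ran from 0.0147 to 0.129.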

How the results depend on the processing

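The count of members past the threshold in RNA was 22, and DESeq2 gave 12, of 3039 genes called in all against 6432 by edgeR; the cause was not tested. The other settings gave 19 to 23, and leaving out single libraries 17 to 19. In m6A-RIP the count per gene stayed between 8 and 12 and the count of rows between 15 and 19. For m6A relative to RNA, leaving out single libraries gave 0 to 2 members (1 in the test as designed), and for Igf2bp3 relative to RNA 0 to 1 (0 in the test as designed). No paired analysis was possible because of missing replicate numbers in the Lin28a+ columns for any fit that uses input or m6A-RIP. In Igf2bp3-RIP, the replicate block gave 2 member peaks and 1 member gene (Hk1), all lower, where 1988 of all peaks were called in place of 24 and 370 of all genes in place of 13. The difference between replicates 1 and 2 correlated at r = 0.688 across 19465 peaks between the groups, but only 2 pairs exist and the labels do not say what the number marks, so the samples were not treated as paired. Some fold changes changed sign, none of them called in the test as designed. With total counts these were Aldoa (0.028) and Pgm2 (0.00063) in RNA, and Gpi1 (-0.076) and Taldo1 (-0.043) in m6A-RIP. Aldoa also changed sign in RNA without a filter (0.012) and relative to RNA with at least 10 counts (0.0020), and Pgam2 in RNA with at least 10 counts (-0.0017). Leaving out single libraries, RNA ran from -0.030 to 0.12 for Pfkm, -0.012 to 0.0066 for Aldoa, -0.030 to 0.064 for Pgam2 and -0.096 to 0.036 for Pgm2. In m6A-RIP the range was -0.035 to 0.083 for Gpi1, -0.039 to 0.018 for Aldoa and -0.032 to 0.026 for Pgam2, and relative to RNA -0.15 to 0.41 for Hk2, -0.035 to 0.028 for Aldoa, -0.073 to 0.033 for Pgam2 and -0.0022 to 0.092 for Pgm1. In Igf2bp3-RIP it was -0.65 to 0.39 for Hk2, -0.0031 to 0.32 for Aldoc, -0.0061 to 0.088 for Pgam1 and -0.11 to 0.014 for Pgm2, and relative to RNA -0.19 to 0.87 for Hk2. The counts of 9 members with a Lin28a-RIP peak and 8 shared peaks were the same under their alternatives. Libraries left alone in a group were assumed to vary like the others.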
